A study of Mus musculus with 10 samples.

Results

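Matrix metalloproteinases (Mmps) are zinc-dependent enzymes that cut collagens, laminins and other proteins of the extracellular matrix, and tissue inhibitors of metalloproteinases (Timps) bind them and block their active site. Here 5 enzyme genes (Mmp2, Mmp3, Mmp9, Mmp13 and Mmp14) and 3 inhibitor genes (Timp1, Timp2 and Timp3) were followed from the bud to the cap stage of the mouse molar. They are 8 of the 27528 genes measured. They were taken by their Ensembl gene IDs, from a list made with earlier results of these data known. Affymetrix Mouse Exon 1.0 arrays were hybridised with RNA of wild type molar 1 tooth germs from NMRI mice, an outbred stock, with 5 arrays of embryonic day E13.5 (bud) and 5 of E14.5 (cap). Each sample was a pool of 12 to 18 germs, so the spread between arrays is one between pools and not between embryos. Both stages carry the replicate numbers 1, 2, 4, 5 and 6, and the values below follow that order. The study's methods call the 5 samples of a stage biological replicates, and p-values measure the spread between these pools.

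Most Mmps are secreted as inactive proenzymes, and they are cut before they can act. Mmp14 stays in the cell membrane and activates proMmp2 in a complex with Timp2, so that Timp2 takes part both in activation and in inhibition. In the developing tooth, a basement membrane separates the epithelium from the mesenchyme, and the epithelium folds around the mesenchyme as the bud becomes a cap. The arrays measure transcripts only, not proenzymes, active enzymes or their inhibition.

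Mmp9 was the 1 gene of the 8 that passed the test between stages (limma, Benjamini-Hochberg adjustment over all genes, threshold 0.05), and it rose about 2.27-fold. Over all genes the test called 7.85%, with 4.36% called higher and 3.49% called lower at E14.5. Mmp9 was also the 1 gene of the 8 whose arrays of the 2 stages did not overlap, which was so for 8.84% of all genes in either direction and for 4.82% with the cap arrays higher. The estimated change was positive for 7 of the 8 genes and negative for Mmp2. The median change of the 8 was 0.19 on the log2 scale, beside -0.01 over all genes, of which 45.7% had a positive change. Apart from Mmp9, these signs rest on changes that did not pass the test.

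**Figure D1:**
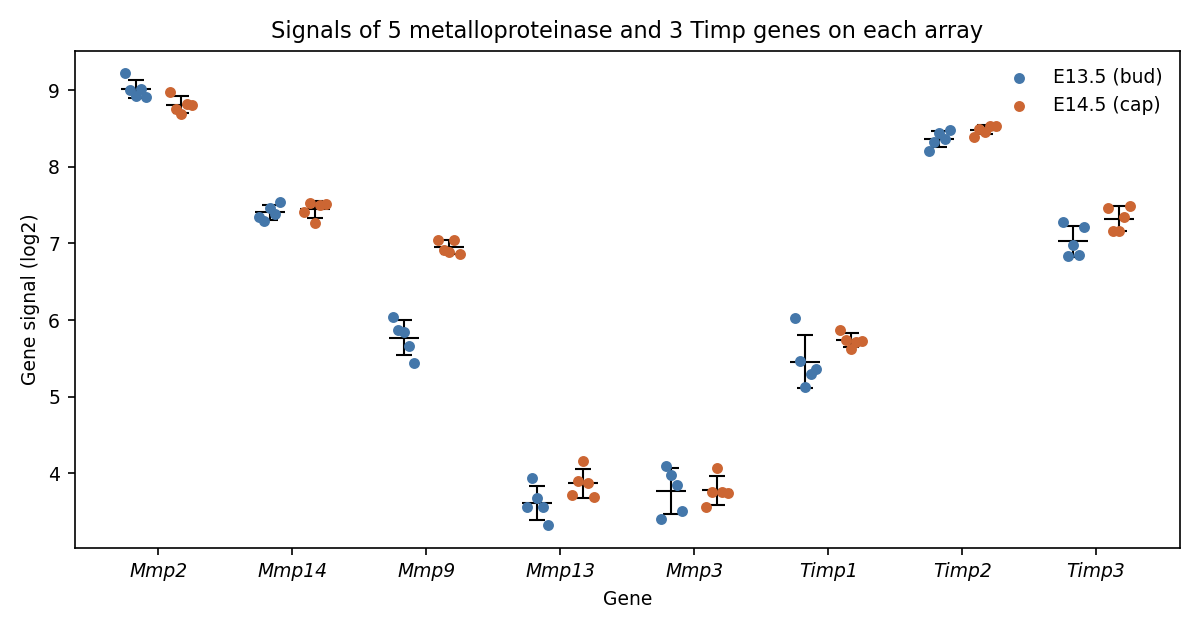
Log2 signal of each gene on each array (points, 5 per stage, blue E13.5 and orange E14.5), with the mean and SD of a stage as black bars. The stages are apart for Mmp9, with 5.44 to 6.04 at E13.5 and 6.86 to 7.05 at E14.5, and overlap for the other 7 genes.

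The array signals, on a log2 scale, also depend on how well the probes of a gene bind, so levels are placed below as the percentage of all genes with a lower mean signal, and a gap between 2 genes is not a gap in transcript number. By this measure Mmp2, Timp2, Mmp14 and Timp3 ranked high at both stages, with Mmp2 at 98.8% and 98.5%, Timp2 at 96.8% and 97.5%, Mmp14 at 88.4% and 89.4%, and Timp3 at 83.3% and 87.8%. Timp1 was in the middle, at 56.1% and 61.6%. Mmp9 moved from 61.5% to 82.4%. Mmp3 (18.8% and 18.9%) and Mmp13 (15.4% and 20.9%) ranked low. Genes of enamel and dentin, used only later, lay from low to high ranks, with Enam at 18.5% and 25.1%, Dspp at 28.9% and 28.0%, Klk4 at 51.1% and 50.9% and Ambn at 76.4% and 65.0%, and Mmp20 was at 17.9% and 19.3%. No detection calls were used here, so whether the dim genes were above background was not tested.

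The 2 dimmest genes, Mmp3 and Mmp13, lie on chromosome 9 with Mmp12 and Mmp1b between them, and both are known targets of AP-1, the Fos and Jun transcription factors. The 250 bases before their annotated starts are shown with the AP-1 motif TGANTCA (searched on both strands, which read alike) in capitals. The window before Timp2, one of the brightest of the 8, is shown as a contrast. The sequences are from RefSeq on build GRCm38.p6, at chr9:7445572-7445821 (plus strand) for Mmp3, chr9:7272264-7272513 (plus strand) for Mmp13 and chr11:118355412-118355661 (minus strand) for Timp2, each upstream of a protein-coding gene.
Mmp3: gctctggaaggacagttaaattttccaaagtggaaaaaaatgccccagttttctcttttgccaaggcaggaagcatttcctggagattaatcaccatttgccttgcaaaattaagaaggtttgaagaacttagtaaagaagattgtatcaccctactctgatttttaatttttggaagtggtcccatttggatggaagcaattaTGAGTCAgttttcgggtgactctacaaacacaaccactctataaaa
Mmp13: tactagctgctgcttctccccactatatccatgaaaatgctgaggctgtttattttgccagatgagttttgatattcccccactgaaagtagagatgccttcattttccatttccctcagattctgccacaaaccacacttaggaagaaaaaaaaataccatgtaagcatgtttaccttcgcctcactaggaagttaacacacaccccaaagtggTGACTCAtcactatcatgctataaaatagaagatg
Timp2: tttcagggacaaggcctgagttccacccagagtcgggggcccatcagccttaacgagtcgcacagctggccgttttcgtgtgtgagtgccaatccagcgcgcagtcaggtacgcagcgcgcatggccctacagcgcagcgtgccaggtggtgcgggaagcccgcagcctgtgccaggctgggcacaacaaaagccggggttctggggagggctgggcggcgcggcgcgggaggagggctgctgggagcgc
Counted from the start, with -1 the last base before it, the motif began at -46 in Mmp3 and at -35 in Mmp13. It was in 6.75% of the 32841 windows of this length, and was absent from those of Mmp14, Timp1, Timp2 and Timp3. The G and C content was 37.6% for Mmp3 and 40.4% for Mmp13, 54.4% for Timp1, 55.2% for Mmp14, 65.6% for Timp3 and 68.0% for Timp2, with a median of 52.4% over all windows. CG dinucleotides numbered 1 each in Mmp3 and Mmp13, 18 in Timp3 and 21 in Timp2. Mmp2 and Mmp9 were not among the sequences used.

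The gelatinases Mmp2 and Mmp9 cut denatured collagen and type IV collagen of basement membranes. Mmp9 (ENSMUSG00000017737) had log2 signals of 6.04, 5.87, 5.84, 5.65 and 5.44 at E13.5 and of 7.05, 6.91, 6.89, 7.04 and 6.86 at E14.5. Its means were 5.77 ± 0.23 and 6.95 ± 0.09 (SD, n = 5 arrays each). The highest bud array was thus below the lowest cap array, and the cap arrays were less spread. The difference was 1.18 (SE 0.10, 95% confidence interval 0.95 to 1.41, limma adjusted p = 3.565e-05), the 56th largest rise among all genes, of which 85 passed the test with a rise of at least 1. The exact permutation test (two-sided, 252 ways to split the arrays) gave p = 0.00794, the smallest it can give.

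Mmp2 (ENSMUSG00000031740), made mainly by mesenchymal cells in many tissues, had signals of 9.22, 9.01, 8.93, 9.02 and 8.92 at E13.5 and of 8.98, 8.75, 8.69, 8.82 and 8.81 at E14.5. The means were 9.02 ± 0.12 and 8.81 ± 0.11 (SD, n = 5 arrays each). Of the 5 cap arrays 4 were below every bud array, but cap replicate 1 was above 2 of them. The difference of -0.21 (95% confidence interval -0.38 to -0.03) had a limma p of 0.0237 and an adjusted p of 0.171, so it did not pass. The exact permutation p, unadjusted, was 0.0238. After quantile normalization the difference was -0.13 (limma adjusted p = 0.435), and with both E13.5 replicate 1 and E14.5 replicate 4 left out it was -0.12. Without E14.5 replicate 1 it was -0.25 (adjusted p = 0.0894), and with array weights -0.19 (adjusted p = 0.0664). It passed in 0 of the 19 alternatives that gave an adjusted limma p. The interval leaves room for a fall of up to 0.38 on the log2 scale and for almost none.

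Mmp14 (ENSMUSG00000000957), the membrane-bound activator of proMmp2, had signals of 7.35, 7.30, 7.46, 7.38 and 7.54 at E13.5 and of 7.41, 7.52, 7.27, 7.50 and 7.52 at E14.5. It had the smallest range over the 10 arrays of the 8 genes, 0.27, and the lowest of all was a cap array and the highest a bud array. The difference of 0.04 did not pass (95% confidence interval -0.12 to 0.20, limma adjusted p = 0.886).

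Mmp3 (ENSMUSG00000043613), a stromelysin that cuts many matrix proteins and activates other Mmps, had signals of 3.39, 4.09, 3.97, 3.85 and 3.51 at E13.5 and of 3.56, 3.75, 4.07, 3.75 and 3.74 at E14.5. The cap arrays lay wholly inside the range of the bud arrays. The difference was 0.01 (95% confidence interval -0.30 to 0.32, limma adjusted p = 0.985), with an interval wide enough for a change of either sign. Its sign turned in some fits, with -0.06 for array weights and -0.08 without E13.5 replicate 1.

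Mmp13 (ENSMUSG00000050578), a collagenase of cartilage and bone, had signals of 3.56, 3.94, 3.68, 3.56 and 3.32 at E13.5 and of 3.72, 3.89, 4.16, 3.87 and 3.68 at E14.5. The difference of 0.26 did not pass (95% confidence interval -0.01 to 0.52, limma adjusted p = 0.288). After quantile normalization it was 0.25 with an adjusted p of 0.04995. The lowest Mmp13 signal was on E13.5 replicate 6, the array with the widest spread of gene signals (SD 1.74), and the highest on cap replicate 4, whose signals were the least spread (SD 1.51). Mmp3 also had its highest cap signal on E14.5 replicate 4. With the spread of each array as a covariate the Mmp13 difference was 0.20 (adjusted p = 0.0677), and the part of the spread in these dim signals was not tested further.

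**Figure D2:**
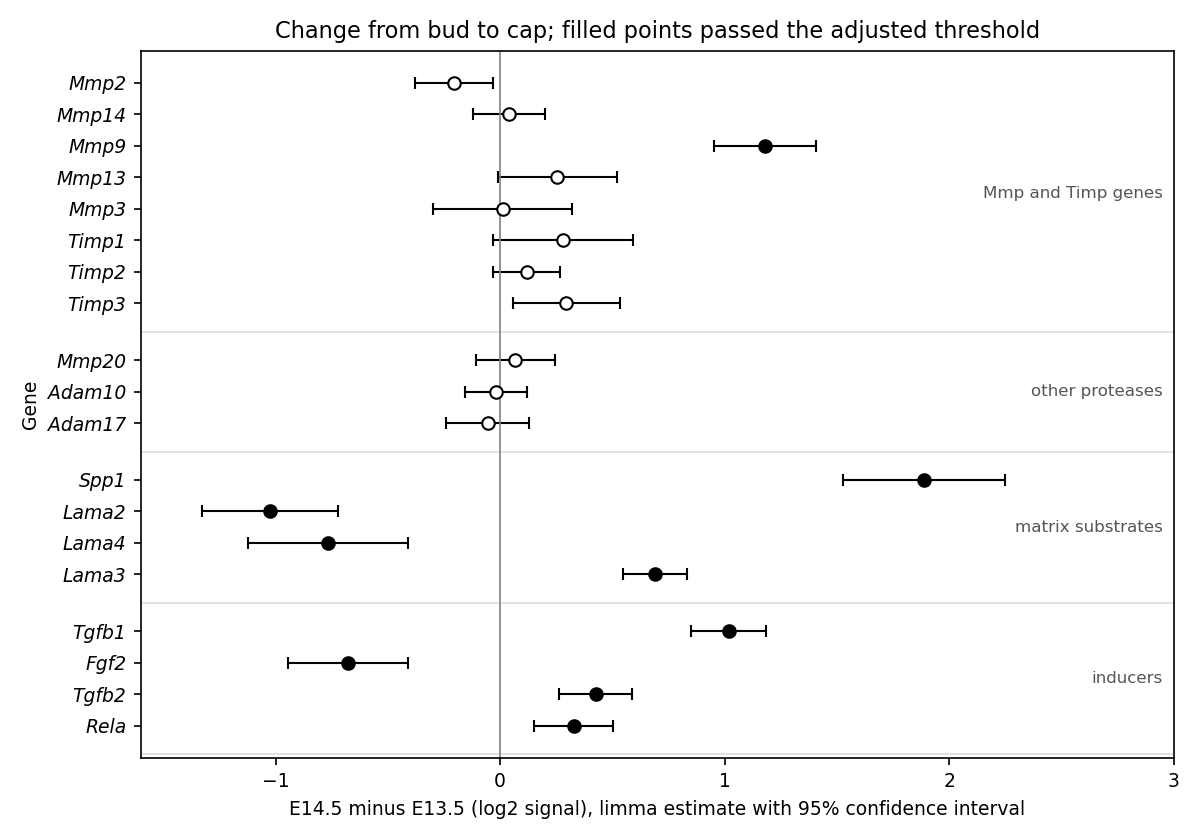
Change from E13.5 to E14.5 on the log2 scale (points) with 95% confidence intervals (bars) for the 8 genes and for the named genes of 3 related lists, filled where the limma adjusted p was under 0.05. Mmp9, at 1.18, stands alone among the Mmp and Timp genes, while laminin genes changed in both directions.

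Of the inhibitors, Timp1 (ENSMUSG00000001131), a secreted inhibitor that binds proMmp9, had signals of 6.03, 5.46, 5.13, 5.29 and 5.36 at E13.5 and of 5.88, 5.74, 5.62, 5.71 and 5.73 at E14.5. E13.5 replicate 1 was above every cap array, and the other 4 bud arrays were below every cap array. The difference was 0.28 (95% confidence interval -0.03 to 0.59, limma adjusted p = 0.329). Without E13.5 replicate 1 it was 0.42 with an adjusted p of 0.0103. Leaving out any other single array gave 0.20 to 0.31, without a pass. E13.5 replicate 1 also had the highest Mmp2 signal and the highest bud signals of Fos (7.57, the other bud arrays 5.51 to 6.27) and Egr1 (7.76, the others 6.15 to 6.65), immediate early genes. On that array the list means of the epithelium (7.95) and enamel knot (5.99) markers given below were the lowest of all 10 arrays. The list mean of the bone markers (7.06) was the highest of all 10 there. The part of these in the Timp1 result was not tested.

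Timp2 (ENSMUSG00000017466), the partner of Mmp14 in the activation of Mmp2, had signals of 8.21, 8.32, 8.45, 8.36 and 8.49 at E13.5 and of 8.39, 8.50, 8.46, 8.53 and 8.54 at E14.5. The cap arrays were mostly the higher ones but overlapped the bud arrays. The difference of 0.12 did not pass (95% confidence interval -0.03 to 0.27, limma adjusted p = 0.410).

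Timp3 (ENSMUSG00000020044), the Timp that binds to the matrix and also inhibits Adam17, had signals of 7.28, 6.83, 6.98, 6.85 and 7.21 at E13.5 and of 7.47, 7.16, 7.16, 7.35 and 7.49 at E14.5. Replicates 1 and 6 were the highest 2 at both stages. The difference was 0.30 (95% confidence interval 0.06 to 0.53) and did not pass (limma adjusted p = 0.151, exact permutation p = 0.0476 unadjusted). It passed with array weights (0.40, adjusted p = 0.0160) and with the spread of each array as a covariate (0.34, adjusted p = 0.0257). Leaving out any single array gave 0.25 to 0.36 without a pass (limma adjusted p from 0.0792 to 0.332).

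**Figure D3:**
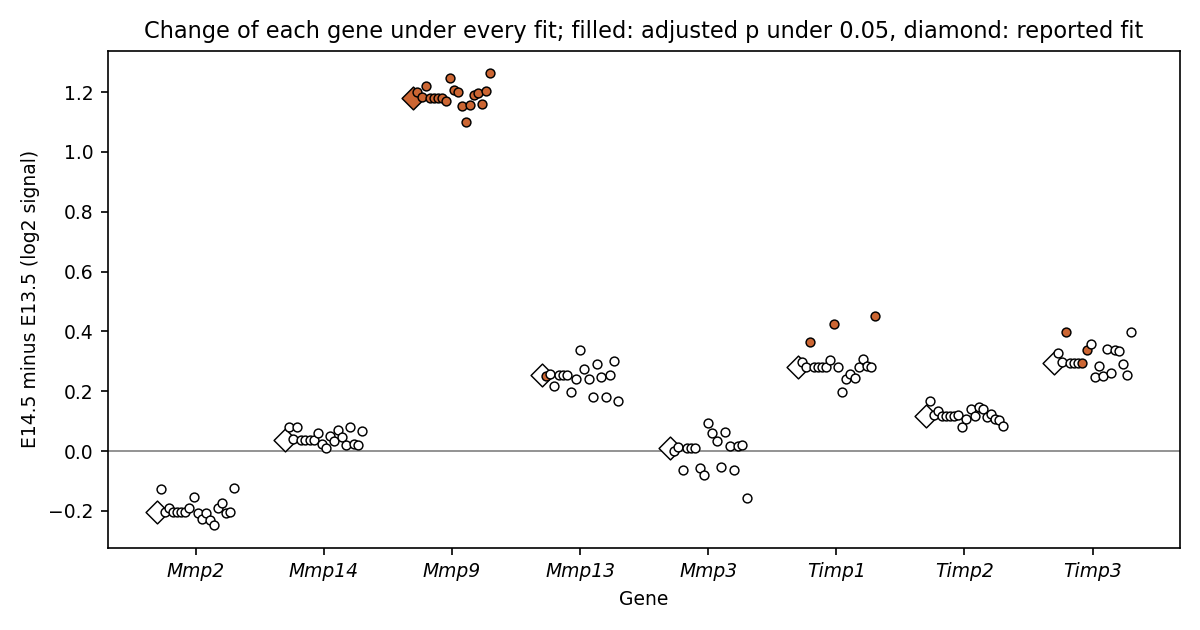
Change of each gene (E14.5 minus E13.5, log2 signal) in the reported fit (diamond) and in the other fits (circles), filled where the adjusted p was under 0.05. Mmp9 was between 1.10 and 1.26 and called throughout, Timp1 and Timp3 were called in 3 fits each and Mmp13 in 1, and the other 4 genes in none.

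The enzyme and inhibitor of known pairs were also set against each other on each array, as a description with no test. The gap of Mmp9 over Timp1 was 0.005, 0.41, 0.71, 0.36 and 0.08 on the log2 scale at E13.5 and 1.18, 1.17, 1.27, 1.33 and 1.13 at E14.5. It widened by 0.90 between the means, and the stages did not overlap. The gap of Mmp2 over Timp2 had a bud mean of 0.65 ± 0.23 and a cap mean of 0.33 ± 0.15 (SD, n = 5 arrays each), with E14.5 replicate 1, at 0.59, inside the range of the bud arrays. The gap of Mmp14 to Timp2 was -0.96 ± 0.06 and -1.04 ± 0.09. The first of these gaps contains the rise of Mmp9 itself, and none says how much enzyme was free of inhibitor.

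In whole germs fewer cells of a type and less RNA per cell cannot be told apart, so markers of the dental tissues were read on the same arrays. All 6 dental mesenchyme markers fell (Msx1, Pax9, Barx1, Lhx6, Lhx8 and Pdgfra), and their mean signal per array ran from 8.46 to 8.73 at E13.5 and from 7.40 to 7.53 at E14.5. All 3 dental epithelium markers read rose (Cdh3 by 0.83, Perp by 0.67 and Trp63 by 0.42), and the list mean ran from 7.95 to 8.38 and from 8.70 to 8.98. Of the 6 markers of the enamel knot, the signalling centre of the cap, 5 rose, with Shh by 2.02, Fgf4 by 1.59 and Wnt10a by 1.46, and the list mean ran from 5.99 to 6.40 and from 7.40 to 7.76. The difference of Fgf20, the knot marker that did not pass, was 0.92 (limma adjusted p = 0.0549), and it passed in 8 of the other fits, with adjusted p from 0.00593 to 0.0493. Mmp9 thus moved together with the epithelium and enamel knot lists and against the mesenchyme list, and their part in its rise was not tested. Of the bone markers, Alpl rose by 0.74 and Postn fell by 0.60 while 3 of 5 did not pass, and of the vessel markers Cspg4 rose by 0.62 while 3 of 4 did not. Both of those list means overlapped between the stages. Markers of osteoclasts and macrophages were not read here.

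**Figure D4:**
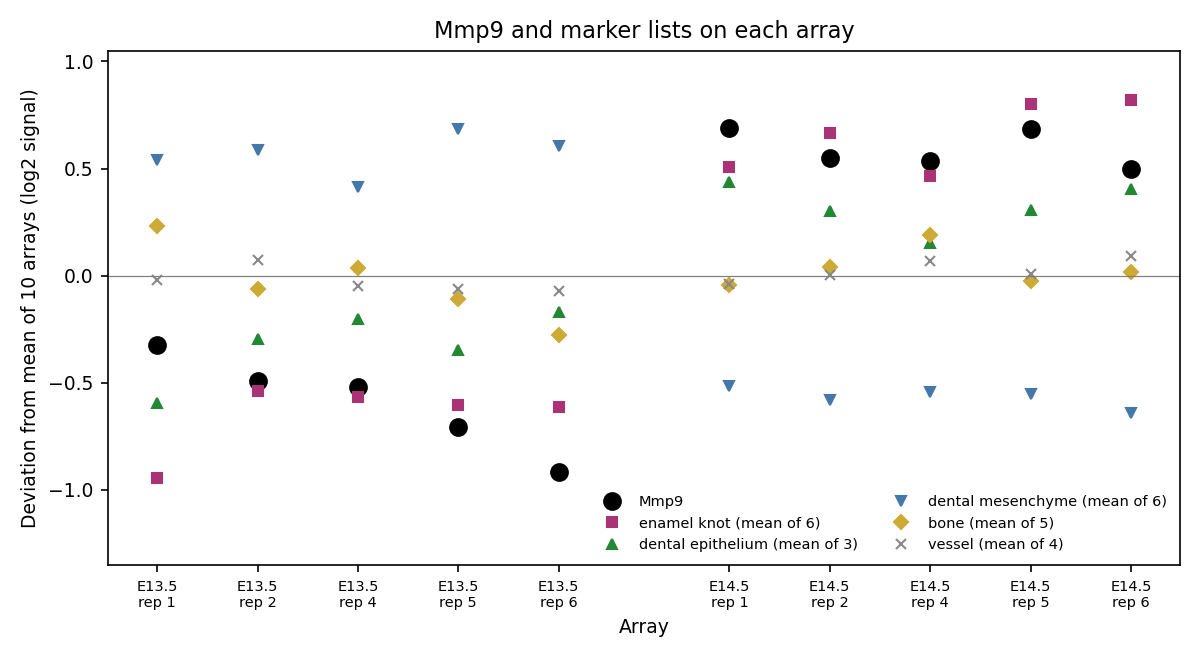
Mmp9 and the mean of each marker list on the 10 arrays, as the deviation from the mean over all arrays (log2 signal). Mmp9, enamel knot and epithelium lie below 0 on all 5 bud arrays and above 0 on all 5 cap arrays, the mesenchyme list does the opposite, and the bone and vessel lists cross 0 within a stage.

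Among 389 other genes with a symbol in the study's tables, those whose deviations over the 10 arrays lay closest to those of Mmp9 were Ndrg1 (root mean square distance 0.14 log2 units), Dkk4 (0.19) and Reln (0.19), with a median distance of 0.61. Their means went from 6.21 to 7.46 for Ndrg1, from 4.55 to 5.73 for Dkk4, a secreted Wnt inhibitor, and from 4.66 to 5.88 for Reln, a secreted matrix glycoprotein. Most of such a distance is set by the step between the stages.

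Of 6 other proteases 0 passed (limma, adjusted p), where 7.85% of all genes did, so a count of 0 among so few says little. Among them 0 had an unadjusted p under 0.05, while 4 of their 6 changes were negative, with a median of -0.02. The signal of Adam10, which sheds Notch and cadherins, averaged 8.17 on bud and 8.16 on cap arrays, and that of Adam17, which sheds Tgfa and Tnf, was 6.82 and 6.76. Mmp20, the enamel protease, went from 3.72 to 3.79. The adjusted p was 0.946, 0.844 and 0.779 in that order. The other 3 were Klk4, Mme and Lnpep.

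Of 13 matrix proteins and other substrates, 4 rose, 4 fell and 5 did not pass, with a median change of -0.02. Lama2 and Lama4, laminin chains of muscle, mesenchymal and vessel basement membranes, fell by 1.02 and 0.77, while Lama3, a chain of the epithelial basement membrane, rose by 0.69. Spp1 (osteopontin), a known substrate of Mmp3, rose by 1.89, from 4.07 ± 0.10 to 5.96 ± 0.41 (SD, n = 5 arrays each). The adjusted p was 0.000667 for Lama2, 0.0123 for Lama4, 6.00e-05 for Lama3 and 3.31e-05 for Spp1 in limma. Lama2 and Lama4 were highest on E13.5 replicate 1 (7.03 and 8.22, the other bud arrays 6.18 to 6.63 and 7.18 to 7.57).

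Of 12 known inducers of Mmp and Timp genes, 3 rose, 1 fell and 8 did not pass, with a median change of 0.17 (7 passed with array weights and 6 without E13.5 replicate 1). The growth factor genes Tgfb1 and Tgfb2 rose by 1.02 and 0.43 and Fgf2 fell by 0.68 (limma adjusted p of 1.1e-05, 0.00379 and 0.00444). Rela, an NF-kB subunit, rose by 0.33 (adjusted p = 0.0264) and lost its call in 7 of the other fits, with adjusted p from 0.052 to 0.095. Fos, named after its values were seen because it forms AP-1, had means of 6.33 ± 0.76 in the bud and 7.06 ± 0.36 in the cap (SD, n = 5 arrays each). Its difference of 0.73 did not pass (adjusted p = 0.240), and without E13.5 replicate 1 it was 1.035 (adjusted p = 0.0125). Of 7 genes of later enamel and dentin, 1 passed, with Ambn (ameloblastin) falling by 0.68 (adjusted p = 0.0137).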

How the data were processed

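Per the labels, 12 to 18 NMRI molar germs were pooled per sample, RNA was extracted and biotin-labelled cDNA was hybridised to 1-colour exon arrays. Normalization by the authors was done in aroma.affymetrix with a custom chip definition that puts all probes of an Ensembl gene in 1 probe set. From their range, the values they deposited were taken to be log2 signals, since the log base, background correction and summary model are not given in the sources used here. A wrong base would scale every difference alike. Scanner files, scan batches and detection calls were not analysed here, and the number of arrays limits the precision.

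Stages were grouped by the embryonic day in the labels. Changes (E14.5 minus E13.5) were fitted over the 10 arrays without covariates by lmFit and eBayes of limma 3.58.1 (R 4.3.3). Two-sided p-values were adjusted by Benjamini and Hochberg's method over 27528 genes, and adjusted values under 0.05 were called. The fit was tested on simulated data. Exact permutation tests, marker means and figures used Python 3.11.15, scipy 1.17.1, pandas 2.3.3, numpy 2.4.6 and matplotlib 3.10.9. Alternatives were quantile normalization, median centring, array weights, an intensity trend, a robust prior, leaving out genes dimmer than the median gene, a replicate block, the spread of each array as a covariate, the exact test and each array left out in turn. Leaving out both E13.5 replicate 1 and E14.5 replicate 4 was added after seeing the data.

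The members and lists were chosen with earlier results of these data known. Symbols come from the study's tables, which hold 6 of the 8 genes, and from the given IDs for Mmp2 and Timp3. A further 23 Mmp, Timp and protease genes had no paired ID and were not analysed here. The text names all 8 genes, from each other list up to 4 called genes with the largest changes, Mmp20, Adam10 and Adam17, and for each called member the 3 genes with the smallest distance to it. The epithelium list was shortened to 3 genes for a reason that did not use their signals, and the genes left out of it are not reported here. Any other gene in the text was named after its values were seen.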

Additional observations from a re-analysis of the deposited data

How the results depend on the processing

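The rise of Mmp9 was past the threshold in all 19 alternatives that gave an adjusted limma p, at 1.10 to 1.26 on the log2 scale with adjusted p from 5.317e-06 to 0.0003218. The number of the 8 genes called, 1 in the reported fit, was 2 with quantile normalization (Mmp13 added), 2 with the spread of each array as a covariate (Timp3), 3 with array weights (Timp1 and Timp3), 2 with both E13.5 replicate 1 and E14.5 replicate 4 left out (Timp1), an alternative chosen after seeing the data, and 1 to 2 with each array left out in turn. By the unadjusted exact permutation test at 0.05 it was 3 (Mmp2, Mmp9 and Timp3). That test was not run on every gene, so no share over all genes stands beside this count. Over all genes, 2162 were called, 3911 with array weights, and 1479 to 2554 with 1 array left out.

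Same-numbered arrays of the 2 stages did not deviate together throughout (r across genes from -0.08 to 0.51), and 2 of 5 numbers correlated best with their own, so the numbers were not taken as pairs. With the replicate number as a block, 2077 genes and 2 of the 8 were called, with Timp3 added at 0.30 (adjusted p = 0.0413), and Trp63 lost its call (adjusted p = 0.0572).

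Among the genes named, signs turned for Mmp3, Adam10 and Klk4, whose changes were near 0. Mmp3 was -0.001 with quantile normalization, -0.064 with array weights, -0.055 with the spread covariate, -0.156 with both arrays left out and -0.081 to 0.093 with 1 array left out. Adam10 was 0.029 with quantile normalization and -0.055 to 0.013 with 1 array left out. Klk4 was 0.029 with array weights, 0.006 with both arrays left out and -0.065 to 0.036 with 1 array left out. Ambn lost its call with both arrays left out (-0.57, adjusted p = 0.0703). Mmp3 and Mmp13 were dimmer than the median gene and have no value where such genes were left out. The causes of these shifts were not tested.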

Other observations

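Over the 5 bud arrays, Mmp9 did not rank as the enamel knot and epithelium lists did, which it followed between stages. Its highest bud signal, 6.04, was on E13.5 replicate 1, where the enamel knot list mean (5.99) and the epithelium list mean (7.95) were lowest. Its lowest, 5.44, was on E13.5 replicate 6, where the epithelium list mean was the highest of the bud arrays (8.38). On E13.5 replicates 2, 4, 5 and 6, though, Mmp9 and the enamel knot list mean ranked in the same order. There Mmp9 was 5.871, 5.841, 5.655 and 5.444, and the knot list mean 6.398, 6.373, 6.336 and 6.326. Over the 5 cap arrays their orders differed. Mmp9 was 7.052, 6.91, 6.894, 7.043 and 6.857 on those, and the knot list mean 7.444, 7.605, 7.402, 7.739 and 7.757. The bone list mean had the same highest and lowest bud arrays as Mmp9, with 7.061, 6.766, 6.864, 6.722 and 6.552 in replicate order. Over the cap arrays the bone list mean was lowest on E14.5 replicate 1 (6.785), where Mmp9 was highest (7.052). Mmp2, Timp1, Timp3, Fos, Egr1, Lama2 and Lama4 also had their highest bud signal on E13.5 replicate 1, while Timp2 had its lowest there (8.21). The arrays of a stage were set side by side after their values were seen, and no test was made.

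The other 4 called matrix genes, also named after their values were seen, split between both directions. The collagen chain Col1a1 and the proteoglycan Dcn (decorin) rose by 0.32 and 0.41 (limma adjusted p of 0.0246 and 0.0360). Dcn signals were 8.09, 8.10, 8.32, 7.83 and 8.25 at E13.5 and 8.71, 8.57, 8.48, 8.61 and 8.27 at E14.5, so that 1 cap array lay within the bud range. Both calls were lost in several fits, with adjusted p of 0.0559 for Col1a1 and 0.0736 for Dcn without E13.5 replicate 1. Tnc (tenascin C) and Postn (periostin), matricellular proteins of mesenchyme, fell by 0.52 and 0.60 (adjusted p of 0.00690 and 0.000745), and their stages did not overlap.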
